A study of Mus musculus with 56 samples.

Results

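*Bhlhe40*, *Bhlhe41* and *Ciart* encode the auxiliary repressors of the mammalian clock known as DEC1, DEC2 and CHRONO. They were selected by gene symbol, as 3 of the 22864 genes listed for mouse heart, and each symbol matched 1 gene. Hearts came from adult female C57BL/6J mice of 9 weeks, an inbred strain with no engineered allele named in the labels, housed under a cycle of 12 h light and 12 h darkness. For 7 days before collection, food was restricted either to the daytime (daytime-restricted feeding, DRF) or to the night (nighttime-restricted feeding, NRF, the reference, since mice eat mostly at night). PolyA RNA was sequenced every 4 h from ZT0 to ZT24 (ZT, zeitgeber time, counts hours from lights on), which gave 7 time points per regimen and 14 groups of 4 libraries, 56 in all. The question put to these genes was whether their time courses followed the light cycle, which was the same in both regimens, or the feeding cycle, which was inverted.

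The core clock is a transcriptional loop in which CLOCK and BMAL1 (encoded by *Arntl*) bind E-box sequences and drive genes such as *Per* and *Cry*, whose products repress CLOCK and BMAL1 in turn. DEC1 and DEC2 are basic helix-loop-helix repressors that bind E-boxes themselves, and CHRONO represses through contact with BMAL1. All 3 genes are E-box targets as well as repressors, so each is part of a feedback arm beside the PER and CRY loop. *Bhlhe40* is also known as a gene induced by hypoxia and other acute stimuli in many tissues.

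The E-box is the sequence through which these genes are known to be linked to the clock, and the promoters of the members are shown for that reason. RefSeq promoter windows of build GRCm38.p6, from 250 bases before to 50 bases after the annotated start, were matched for *Bhlhe41* and *Ciart*. The window of *Ciart* lies at chr3:95882179-95882478 and that of *Bhlhe41* at chr6:145865371-145865670, both on the minus strand. Each is printed 5′ to 3′ with every E-box (CACGTG) in capitals.
Ciart: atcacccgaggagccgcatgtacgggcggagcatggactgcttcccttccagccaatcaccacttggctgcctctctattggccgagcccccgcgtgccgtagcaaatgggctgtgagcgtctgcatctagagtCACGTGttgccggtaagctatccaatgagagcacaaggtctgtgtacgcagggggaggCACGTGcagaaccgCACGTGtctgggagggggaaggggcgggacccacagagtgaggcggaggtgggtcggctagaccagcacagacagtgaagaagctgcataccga
Bhlhe41: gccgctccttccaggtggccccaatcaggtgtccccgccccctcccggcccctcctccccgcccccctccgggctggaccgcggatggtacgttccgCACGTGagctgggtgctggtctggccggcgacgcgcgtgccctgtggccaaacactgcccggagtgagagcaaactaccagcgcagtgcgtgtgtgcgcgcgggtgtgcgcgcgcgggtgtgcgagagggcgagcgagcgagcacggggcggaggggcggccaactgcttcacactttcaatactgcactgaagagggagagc

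The window of *Ciart* held 3 E-boxes, whose first bases lay at positions -116, -58 and -44 counted from the annotated start. The window of *Bhlhe41* held 1, at position -153. CACGTG reads the same on both strands, so 1 search covered both. Among all 32851 promoter windows in the table, 2349 (7.15%) held at least 1 E-box and 29 (0.0883%) held 3 or more. Of the 14 other core clock genes with a window, 3 held at least 1 (*Cry1*, *Per1* and *Tef*). CACGTT (an E-box variant, found in 4.68% of windows), TTATGTAA (a D-box, 0.938%) and TAGGTCA (the core of a ROR element, 2.61%), searched on both strands, had no match in either window. CACGTT differs from CACGTG in its last base, so no site matches both. A match describes the letters alone.

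By GENCODE M21 on GRCm38, *Bhlhe40* (ENSMUSG00000030103) lies on chromosome 6 from 108660629 to 108666925 on the plus strand, *Bhlhe41* (ENSMUSG00000030256) on chromosome 6 from 145858243 to 145865558 on the minus strand, and *Ciart* (ENSMUSG00000038550) on chromosome 3 from 95878503 to 95882251 on the minus strand. Values were counted over their exons. An antisense gene, 0610040F04Rik, shares 118 exon bases (2.51%) with *Bhlhe40* and averaged 2.34 reads per library. Gm43909 shares 1280 exon bases (19%) with *Bhlhe41* from the other strand and averaged 11.3 reads, and the use of strand in counting was not given in the sources used here. *Bhlhe40* had 684 to 4264 reads per library, *Bhlhe41* 321 to 1731 and *Ciart* 20 to 902, so counting error was largest for *Ciart*.

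Libraries held 29.4 to 53.1 M recovered reads (M, mega; median 37.4 M), and depth was close between regimens (DRF 38.2 ± 5.75 M, NRF 38.5 ± 4.65 M, SD over 28 libraries each). All levels below are TPM, that is reads per base of exon scaled to a fixed sum per library, which allows levels of different genes to be set side by side. Cardiomyocyte markers summed to 23049 to 36868 TPM, and no marker of any list had a median of 0. Before any result on the members, 3 libraries must be named. Over the 16 other core clock genes, the library labelled DRF ZT4 replicate 1 lay 0.988 log2 units (root mean square) from the other libraries of its label and 0.262 from NRF ZT8. The library labelled NRF ZT8 replicate 1 lay 1.26 from its own label and 0.404 from DRF ZT4. The library labelled DRF ZT16 replicate 1 lay 0.668 from its own label and 0.337 from DRF ZT12. DRF ZT24 replicate 3 lay 0.452 from its own label and 0.208 from DRF ZT0, the same clock time, and is not counted among the 3. For the first 2, 1079 genes outside the clock lists with a different rhythm (adjusted p under 0.001) gave the same nearest groups (0.389 against 0.163, and 0.357 against 0.167), whereas DRF ZT16 replicate 1 lay nearest to its own label over those genes (0.227). For 6 of 8 marker lists, the library labelled NRF ZT8 replicate 1 lay outside the range of the other 3 libraries of its label. Among these lists were the atrial markers (432 TPM summed against 1708 to 3528). DRF ZT4 replicate 1 did so for 1 list and DRF ZT16 replicate 1 for 2. In every group 1 library is the highest and 1 the lowest for any list, so such counts also arise by chance. They were not tested and do not by themselves set a library apart. Whether the labels of the first 2 were exchanged was not tested. Labels were kept as given, and the main results that rest on these libraries are given with and without them.

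*Ciart* had a low level for most of the day and a sharp peak at dusk under NRF. At ZT12 under NRF, the 4 libraries held 24.9, 17.7, 21.3 and 16.1 TPM. At ZT12 under DRF they held 3.37, 3.17, 3.60 and 3.66 TPM, so the groups were far from overlapping. The mean was 5.79-fold higher under NRF (19.99 ± 3.93 against 3.45 ± 0.224 TPM, SD, n = 4 each). On the log2(TPM + 1) scale the difference was -2.22 ± 0.36 (SE; limma adjusted p = 0.000224), and 7.67% of all 13885 genes tested were called at this ZT.

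At ZT16 the 4 NRF libraries held 5.69, 6.60, 8.86 and 4.02 TPM of *Ciart*, and the DRF libraries 6.12, 1.105, 1.15 and 0.909 TPM. The 6.12 TPM came from the library labelled DRF ZT16 replicate 1, and it alone made the groups overlap. The difference was -1.34 ± 0.36 (limma adjusted p = 0.0185, with 6.88% of genes called at ZT16), and -1.79 without the 3 libraries (adjusted p = 5.61e-06). The call was lost when any of 5 other single libraries of ZT16 was left out, with adjusted p values up to 0.119 (without DRF replicate 4).

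At ZT8 the NRF libraries held 1.59, 6.66, 12.5 and 10.05 TPM of *Ciart*, and the DRF libraries 2.84, 2.57, 5.28 and 4.48 TPM. The low NRF value was that of the library labelled NRF ZT8 replicate 1. With it the difference missed the threshold (-0.66 ± 0.36, limma adjusted p = 0.385), and without it the difference was -1.16 (adjusted p = 0.0450). At this ZT 0.353% of all genes were called. At ZT4 the NRF libraries held 0.633, 1.97, 0.577 and 1.22 TPM and the DRF libraries 7.60, 2.08, 1.74 and 0.977 TPM, the highest being the library labelled DRF ZT4 replicate 1. That difference was 0.77 ± 0.36 (adjusted p = 0.377) and 0.33 without the first 2 libraries (adjusted p = 0.607). Around the other end of the night *Ciart* was low in both regimens. It averaged 1.72 ± 0.588 TPM under NRF and 1.604 ± 0.727 under DRF at ZT0, 2.25 ± 0.447 and 1.18 ± 0.228 at ZT20, and 2.03 ± 0.849 and 1.13 ± 0.271 at ZT24. At ZT20 the groups did not overlap, and the difference missed the threshold (-0.57 ± 0.36, limma adjusted p = 0.287, with 14.8% of genes called).

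Across the 14 groups *Ciart* was highest in NRF ZT12, where each library lay above every library of the other groups. NRF ZT8 (7.69 ± 4.72 TPM) and NRF ZT16 (6.29 ± 2.02) followed and overlapped each other, then DRF ZT8 (3.79 ± 1.3), DRF ZT12 and DRF ZT4 (3.10 ± 3.03), which overlapped as well. Without the library labelled DRF ZT4 replicate 1 the DRF ZT4 mean was 1.598 ± 0.564 TPM (n = 3), below NRF ZT20, NRF ZT24 and NRF ZT0. The ratio of the highest to the lowest group mean was 18.2 under NRF (ZT12 over ZT4) and 3.35 under DRF (ZT8 over ZT24).

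*Bhlhe41* was higher under DRF early in the light phase and lower from dusk into the night. At ZT4 the NRF libraries held 3.29, 4.68, 3.56 and 4.21 TPM, and the DRF libraries 12.5, 7.03, 7.03 and 6.24 TPM. The groups did not overlap, and the mean was 2.08-fold higher under DRF. The difference was 0.86 ± 0.14 (limma adjusted p = 0.000476), at a ZT where 0.447% of all genes were called. Without the library labelled DRF ZT4 replicate 1, which held the 12.5 TPM, the DRF mean was 6.77 ± 0.458 TPM (n = 3), and with the first 2 libraries left out the difference was 0.66 (adjusted p = 0.000375).

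At ZT8 the NRF libraries held 6.99, 11.4, 12.7 and 12.0 TPM of *Bhlhe41* and the DRF libraries 8.37, 7.82, 7.92 and 7.78 TPM. The lowest NRF value, in the library labelled NRF ZT8 replicate 1, lay below all DRF values, while the other 3 lay above them. The difference of -0.36 ± 0.14 missed the threshold (limma adjusted p = 0.236), and it was -0.54 without that library (adjusted p = 0.0254). At ZT12 the NRF libraries held 12.7, 11.5, 11.2 and 8.23 TPM and the DRF libraries 7.74, 6.36, 5.86 and 7.01 TPM, with no overlap and a difference of -0.61 ± 0.14 (limma adjusted p = 0.00568). That call was lost without replicate 2 (adjusted p = 0.0871) or replicate 3 (0.180) of every group, and held without any single library of ZT12. At ZT16 (-0.45 ± 0.14, limma adjusted p = 0.0443) and ZT20 (-0.43 ± 0.14, adjusted p = 0.0330) the level was also lower under DRF. The call at ZT16 was lost on leaving out any of 6 of the 8 libraries of ZT16 (adjusted p up to 0.194, without DRF replicate 4), and that at ZT20 on leaving out any of 4 libraries of ZT20 (up to 0.133, without NRF replicate 2).

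At ZT16 *Bhlhe41* averaged 6.68 ± 0.744 TPM under NRF and 4.65 ± 0.943 under DRF, and at ZT20 5.81 ± 0.836 and 4.02 ± 0.458 (SD, n = 4 each). At ZT0 the regimens were close, with 4.10 ± 0.437 TPM under NRF and 4.20 ± 0.482 under DRF (11.4% of genes called), and likewise at ZT24, with 4.15 ± 0.371 and 3.65 ± 0.520 TPM (8.87% of genes called). NRF ZT12 (10.9 ± 1.90 TPM) and NRF ZT8 (10.8 ± 2.58) were the highest groups and overlapped, followed by DRF ZT4 (8.19 ± 2.87) and DRF ZT8 (7.97 ± 0.270). Without the library labelled DRF ZT4 replicate 1 the DRF ZT4 mean was 6.77 ± 0.458 TPM (n = 3), below DRF ZT8. With all libraries the ratio of the highest to the lowest group mean was 2.77 under NRF (ZT12 over ZT4) and 2.25 under DRF (ZT4 over ZT24).

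*Bhlhe40* was the most abundant of the 3, with 24.4 ± 9.5 TPM under NRF and 21.2 ± 6.84 under DRF (SD, n = 28 each), against 6.62 ± 3.11 and 5.63 ± 2.13 TPM for *Bhlhe41* and 5.87 ± 6.70 and 2.37 ± 1.75 TPM for *Ciart*. At ZT8 the NRF libraries held 21.1, 40.2, 43.7 and 50.7 TPM of *Bhlhe40* and the DRF libraries 22.5, 23.6, 22.6 and 26.5 TPM. The library labelled NRF ZT8 replicate 1 lay below all DRF libraries and the other 3 above them. The difference was -0.62 ± 0.22 (limma adjusted p = 0.177), and -0.88 without that library (adjusted p = 0.0213). At ZT4 the NRF libraries held 15.2, 20.8, 14.9 and 24.1 TPM and the DRF libraries 42.7, 26.2, 21.8 and 18.3 TPM, and these groups overlapped. The difference at ZT4 was 0.47 ± 0.22 (limma adjusted p = 0.383), and 0.24 without the libraries labelled DRF ZT4 replicate 1 and NRF ZT8 replicate 1 (adjusted p = 0.584).

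With all libraries no ZT passed the threshold for *Bhlhe40* (7 ZTs, 0 called by limma, and 2 at an unadjusted p under 0.05, ZT4 and ZT8). Of all 13885 genes, 1662 had an unadjusted limma p under 0.05 at ZT4 and 2028 at ZT8. At ZT16 the groups did not overlap (22.8 to 27.6 TPM under NRF and 18.4 to 22.5 under DRF), with a difference of -0.32 ± 0.22 (adjusted p = 0.379). The highest groups were NRF ZT8 (38.9 ± 12.6 TPM), NRF ZT12 (32.8 ± 3.49), DRF ZT4 (27.2 ± 10.8) and DRF ZT12 (26.1 ± 6.01), and each overlapped its neighbour in this order. The DRF ZT4 mean was 22.1 ± 3.94 TPM without replicate 1 (n = 3). The lowest were DRF ZT24 (14.6 ± 3.24) and DRF ZT20 (15.8 ± 4.04). Group means spanned a ratio of 2.34 under NRF (ZT8 over ZT24) and 1.86 under DRF (ZT4 over ZT24). The TPM ratio of *Bhlhe40* to *Bhlhe41*, the related DEC genes, averaged 4.92 ± 1.34 at NRF ZT0, 3.08 ± 0.612 at NRF ZT12, 4.93 ± 1.84 at DRF ZT0 and 3.00 ± 0.310 at DRF ZT8, so *Bhlhe40* was the more abundant in every group.

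**Figure D1:**
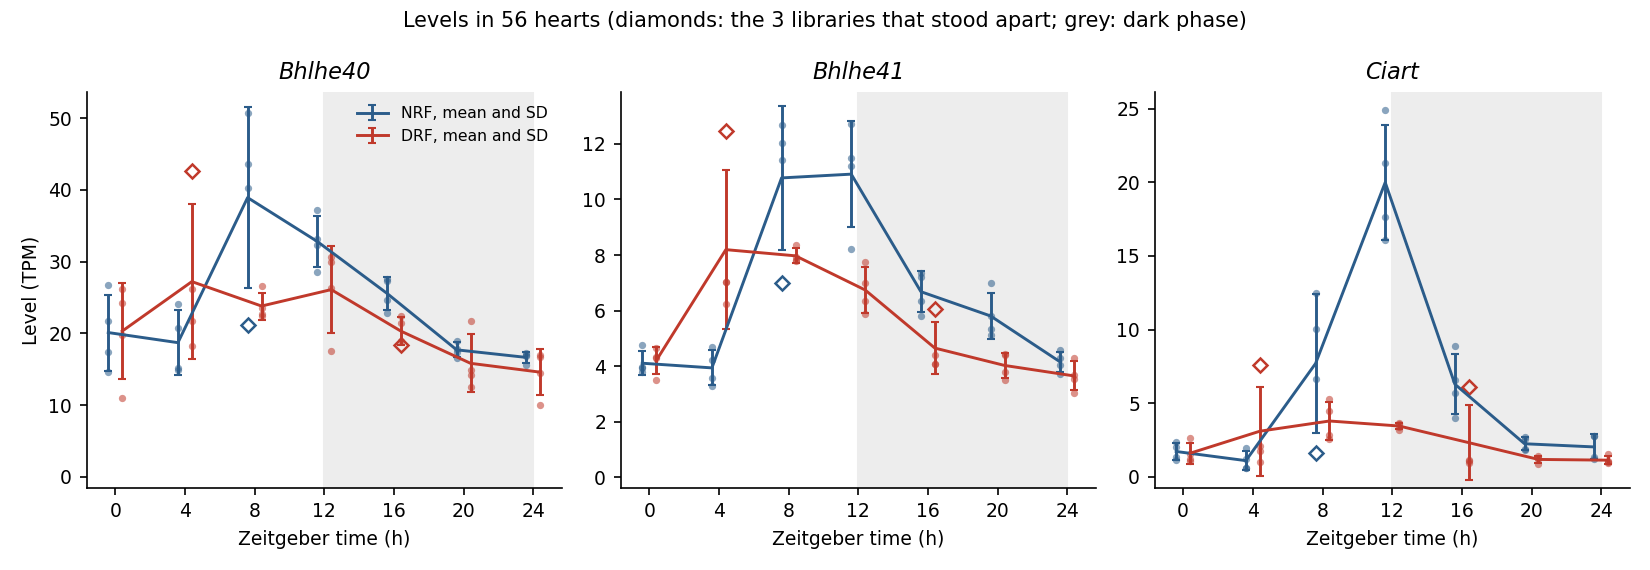
Level of each gene (TPM) against zeitgeber time in hours for NRF (blue) and DRF (red), with 1 point per library, group means joined by lines, bars of 1 SD (n = 4) and the dark phase in grey. Open diamonds mark the 3 libraries that stood apart, and each is the highest or the lowest of its group. The NRF ZT12 libraries of *Ciart* (16.1 to 24.9 TPM) stand above all other groups.

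All 3 genes were rhythmic under both regimens, and their fitted peaks were earlier under DRF. A curve with a period of 24 h was fitted to log2(TPM + 1) within each regimen, so its amplitude is the log2 distance from the mean to the peak. Under NRF the limma adjusted p values were 2.39e-05 for *Bhlhe40*, 4.70e-07 for *Bhlhe41* and 7.11e-07 for *Ciart*, with 37.2% of all genes called rhythmic. Under DRF they were 0.0121, 2.20e-06 and 0.00221, with 32.3% of all genes called. The call for *Bhlhe40* under DRF was lost without replicate 1 (adjusted p = 0.0725), without replicate 2 (0.0675) or without ZT20 (0.0632).

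The fitted peak of *Bhlhe41* moved from ZT 11.8 ± 0.515 under NRF to ZT 8.24 ± 0.455 under DRF (SE), a shift of -3.54 h with a 95% interval from -4.88 to -2.19 h (permutation test with regimens exchanged within each ZT, 100000 resamples, two-sided, p = 0.0002). That of *Ciart* moved from ZT 12.5 ± 0.533 to ZT 9.18 ± 0.860, a shift of -3.32 h (-5.30 to -1.33 h; permutation p = 0.00865). For *Bhlhe40* the peaks were ZT 10.8 ± 0.655 and ZT 8.90 ± 1.04, and the interval of the shift of -1.86 h included 0 (-4.26 to 0.55 h; permutation p = 0.136). These p values are unadjusted. Without the libraries labelled DRF ZT4 replicate 1 and NRF ZT8 replicate 1 the shifts were smaller, at -2.99 h for *Bhlhe41* (-4.23 to -1.75 h), -2.25 h for *Ciart* (-4.10 to -0.40 h) and -0.85 h for *Bhlhe40* (-3.19 to 1.5 h). With DRF ZT16 replicate 1 left out as well they were -3.21, -3.06 and -0.73 h. None of these intervals reached the 12 h by which the feeding phase was moved. Sampling was every 4 h, and leaving out ZT4 altogether gave -1.66 h for *Bhlhe41*, and for *Bhlhe40* turned the shift to 0.27 h.

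The difference in rhythm as a whole, tested by the interaction of regimen with both terms of the curve, was called for *Bhlhe41* (limma adjusted p = 0.000308) and *Ciart* (adjusted p = 0.000452) and not for *Bhlhe40* (adjusted p = 0.230). It was called for 27.5% of all genes. Both calls held in each of the 19 alternatives run, with adjusted p values up to 0.0315 for *Bhlhe41* and 0.0375 for *Ciart*, and *Bhlhe40* passed in none of its 19 (0.0988 to 0.611).

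The amplitude of *Ciart* was smaller under DRF (0.60 ± 0.13 against 1.35 ± 0.17 log2 units, SE). Its log2 amplitude ratio of DRF to NRF was -1.16 (95% interval -1.88 to -0.44; permutation p = 0.017). On the fitted curves this is a peak-to-trough fold of TPM + 1 of 6.46 under NRF and 2.31 under DRF, smaller than a fold of TPM would be for a gene this low. For *Bhlhe41* the amplitudes were 0.62 ± 0.07 under NRF and 0.52 ± 0.07 under DRF (ratio -0.24, interval -0.73 to 0.25; permutation p = 0.421), and for *Bhlhe40* 0.52 ± 0.08 and 0.37 ± 0.10 (ratio -0.49, interval -1.38 to 0.40; permutation p = 0.295). A smaller amplitude of *Bhlhe40* or *Bhlhe41* under DRF was thus not detectable, and both intervals also allow sizeable loss. Without the libraries labelled DRF ZT4 replicate 1 and NRF ZT8 replicate 1 the log2 ratios were -1.32 for *Ciart* (-1.95 to -0.69), -0.39 for *Bhlhe41* (-0.82 to 0.04) and -0.73 for *Bhlhe40* (-1.55 to 0.10).

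The order of the peaks was partly resolved. Under NRF the peak of *Ciart* followed that of *Bhlhe40* by 1.74 h (95% interval 0.57 to 2.91 h), while *Bhlhe41* followed *Bhlhe40* by 1.02 h (-0.01 to 2.04 h) and *Ciart* followed *Bhlhe41* by 0.73 h (-0.16 to 1.62 h). With a pseudocount of 0.1 in place of 1, the last pair of intervals no longer included 0 (0.04 to 2.1 h and 0.01 to 1.77 h). Without the first 2 libraries that stood apart *Bhlhe41* followed *Bhlhe40* by 1.14 h (0.18 to 2.09 h). In that setting *Ciart* followed *Bhlhe41* by 0.47 h, with an interval that included 0 (-0.35 to 1.3 h). Under DRF no pair was separated. *Ciart* lay 0.28 h after *Bhlhe40* (-1.84 to 2.41 h) and 0.95 h after *Bhlhe41* (-0.43 to 2.32 h), and *Bhlhe41* lay at -0.66 h from *Bhlhe40* (-2.43 to 1.1 h). Without all 3 libraries that stood apart no pair was separated either, and *Ciart* lay at -0.71 h from *Bhlhe40* (-3.05 to 1.62 h). The shift of *Bhlhe41* differed from that of *Bhlhe40* by -1.68 h (-3.72 to 0.36 h), so a different shift of the DEC genes was not shown with all libraries. It was -2.14 h without the first 2 libraries that stood apart (-4.38 to 0.09 h) and -2.47 h without all 3 (-4.81 to -0.14 h).

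**Figure D2:**
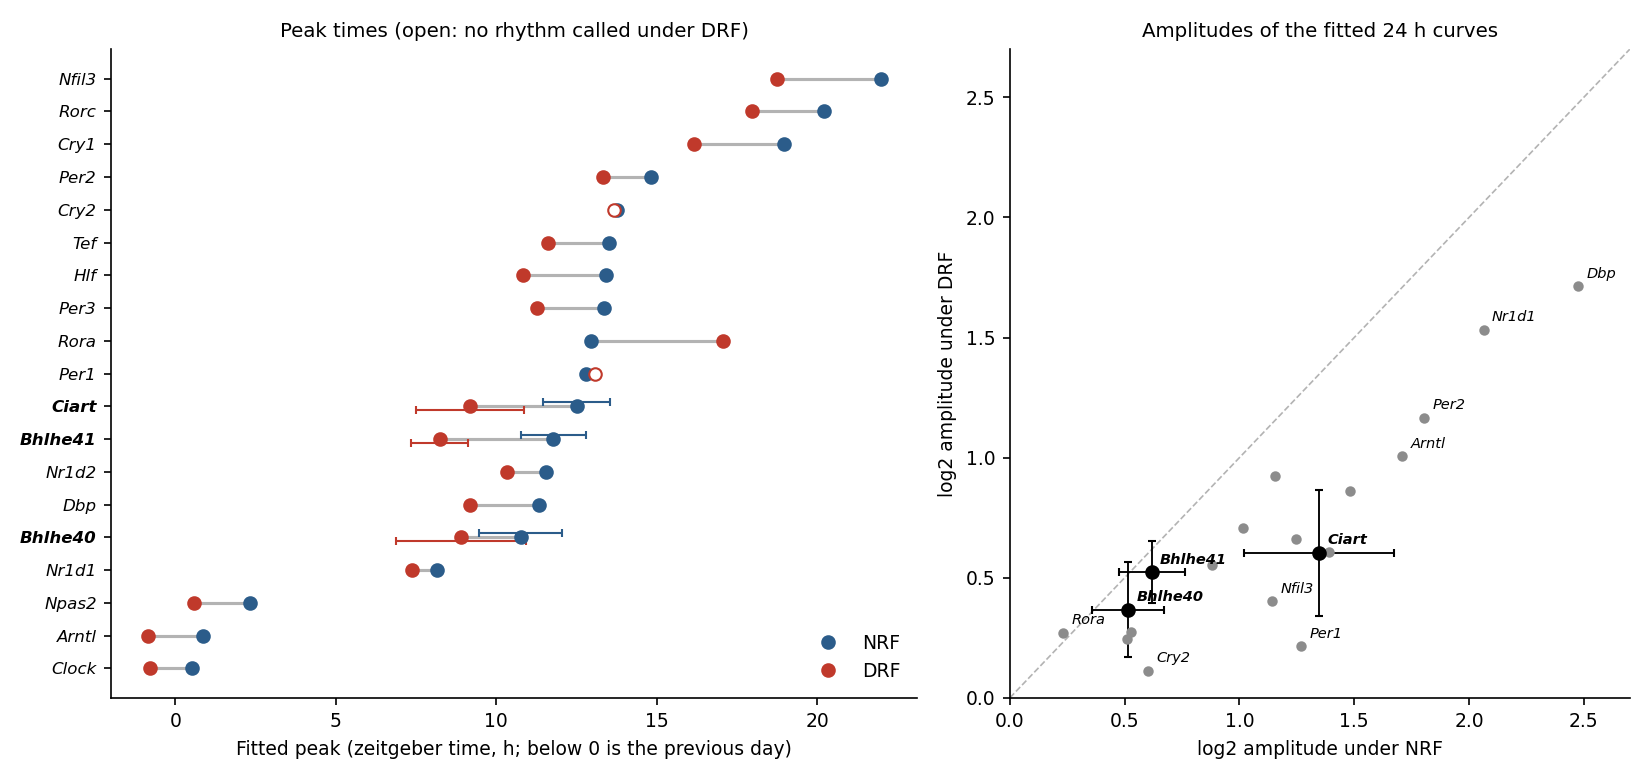
Left, fitted peak (ZT, h) under NRF (blue) and DRF (red) for the 3 genes (bold, with 95% intervals) and the 16 other core clock genes, ordered by the NRF peak, with open symbols where no rhythm was called under DRF. Right, log2 amplitude under NRF against DRF with 95% intervals for the 3 genes; the dashed line marks equal amplitudes, and *Ciart* (1.35 and 0.60) lies well below it.

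A component with a period of 12 h was added to the 24 h terms. It describes the shape of the time course and does not by itself show a 12 h rhythm. With all libraries and log2(TPM + 1) it was not called for any of the 3 genes. In that limma fit it was called for 0 of all genes under NRF (0.0%; 808 genes at an unadjusted p under 0.05, and 7 genes by limma-voom) and for 29 under DRF (0.209%; 2524 unadjusted, and 149 by limma-voom). The adjusted p under NRF was 0.0876 for *Bhlhe41* and 0.181 for *Ciart*. For *Bhlhe41* under NRF the call depended on the processing, since the component was called by limma after median-of-ratios rescaling (adjusted p = 0.0154), by limma-voom (0.0295) and on the deposited values (0.0319). Without the libraries labelled DRF ZT4 replicate 1 and NRF ZT8 replicate 1 it was called under NRF for *Bhlhe41* (limma adjusted p = 0.00502) and *Ciart* (0.00905), and with DRF ZT16 replicate 1 left out as well it was also called for *Ciart* under DRF (0.0390). The share of all genes called after rescaling, on the deposited values or without these libraries is not given here. ZT24 against ZT0, the same clock time 1 cycle apart, gave no call for the 3 genes in either regimen (limma adjusted p from 0.457 to 0.983). Over all genes 0.0576% were called in that comparison under NRF and 0.425% under DRF.

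The mean of the fitted curve was lower under DRF for *Ciart*, by 0.78 ± 0.15 on the log2(TPM + 1) scale (1.66 against 2.44; limma adjusted p = 0.000193), and the group mean was lower at 6 of 7 ZTs. For *Bhlhe41* it was lower by 0.21 ± 0.07 (2.71 against 2.91; limma adjusted p = 0.0201; lower at 5 of 7 ZTs). That call held in 10 of 19 alternatives and was lost, for example, without replicate 2 (adjusted p = 0.207), replicate 3 (0.182) or ZT8 (0.401). For *Bhlhe40* a difference of -0.21 ± 0.09 missed the threshold (4.44 against 4.65; adjusted p = 0.0797; lower at 6 of 7 ZTs), and it passed without the libraries labelled DRF ZT4 replicate 1 and NRF ZT8 replicate 1 (-0.28, adjusted p = 0.00787). Of all genes 26.0% were called, 24.3% as lower under DRF. That split depended on the scaling: 232 of 3604 called genes (6.44%) were higher under DRF by TPM and 808 of 1828 (44.2%) after median-of-ratios rescaling of the libraries. Under that rescaling *Bhlhe41* was no longer called (adjusted p = 0.0942), while *Ciart* was called in all 19 alternatives (adjusted p up to 0.0182).

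Markers of several other cell types were called in the same contrast by TPM, where 24.3% of all genes were called lower under DRF. Marker calls after median-of-ratios rescaling are not given here. The mean level was lower under DRF for 4 of 5 endothelial markers (summed level 375 to 649 TPM under DRF and 441 to 746 under NRF), 4 of 5 fibroblast markers (360 to 626 and 389 to 633 TPM), 3 of 4 pericyte and smooth muscle markers (553 to 793 and 624 to 1017 TPM) and 2 of 4 tested immune markers (44.5 to 86.0 and 47.4 to 106 TPM). Of 6 cardiomyocyte markers 1 was lower and 1 higher. No atrial (4), red blood cell (5) or adipocyte (4 tested) marker was called. The atrial markers varied widely between libraries, from 94.9 to 5476 TPM summed under DRF (median 1801) and from 129 to 4302 under NRF (median 608), and their median log2 difference in mean level was 1.11. The mitochondrially encoded share of reads was 21.7 ± 1.46% in DRF libraries and 20.4 ± 1.57% in NRF libraries (SD over 28 libraries each). The part of these, and of the scaling, in the lower mean levels was not tested. In whole tissue, fewer cells of a type and less RNA per cell cannot be told apart.

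Matching the regimens by feeding time instead of light time left larger differences between the time courses. DRF ZT0 was set beside NRF ZT12, DRF ZT4 beside NRF ZT16 and so on, taking food to begin with the light under DRF and with the dark under NRF. At DRF ZT0 against NRF ZT12, 6.21% of all genes were called and all 3 members were lower under DRF, *Bhlhe40* by 0.73 ± 0.22 (limma adjusted p = 0.0385), *Bhlhe41* by 1.19 ± 0.14 (8.50e-08) and *Ciart* by 3.03 ± 0.36 (5.20e-08). *Ciart* held 1.18, 2.65, 1.54 and 1.05 TPM at DRF ZT0, a mean 12.5-fold below NRF ZT12. The call for *Bhlhe40* was lost without any one of the 4 replicate numbers (limma adjusted p 0.0736 to 0.241). With DRF ZT24, the same clock time, in place of DRF ZT0 its difference was -1.14 (adjusted p = 0.000305).

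At DRF ZT20 against NRF ZT8, 24.1% of genes were called and the 3 were again lower, *Bhlhe40* by 1.21 ± 0.22 (limma adjusted p = 0.000139), *Bhlhe41* by 1.2 ± 0.14 (1.31e-07) and *Ciart* by 1.76 ± 0.36 (0.000432). Without the libraries labelled DRF ZT4 replicate 1 and NRF ZT8 replicate 1 these differences were -1.47, -1.38 and -2.27. *Bhlhe41* was higher at DRF ZT12 than at NRF ZT24 by 0.58 ± 0.14 (limma adjusted p = 0.00786; 5.18% of genes called), a call lost without replicate 2 (0.0876) or replicate 4 (0.0602). With all libraries on log2(TPM + 1) the remaining pairs gave no call for the members, at DRF ZT4 against NRF ZT16 (6.4% of genes called), DRF ZT8 against NRF ZT20 (5.57%) and DRF ZT16 against NRF ZT4 (22.7%). Other settings gave further calls. *Ciart* at DRF ZT4 against NRF ZT16 had a difference of -1.03 ± 0.36 with all libraries (limma adjusted p = 0.0749) and -1.47 without the libraries labelled DRF ZT4 replicate 1 and NRF ZT8 replicate 1 (0.000668), and it was also called after median-of-ratios rescaling (0.0439) and by limma-voom (0.0420). *Bhlhe41* at DRF ZT8 against NRF ZT20 had a difference of 0.41 ± 0.14 (limma adjusted p = 0.0841), called without those libraries (0.0145), after rescaling (0.0246), by limma-voom (0.0481) and on the deposited values (0.0399). *Bhlhe40* at DRF ZT12 against NRF ZT24 had a difference of 0.59 ± 0.22 (limma adjusted p = 0.119), called without those 2 libraries (0.0477) and not without all 3 (0.0503). The root mean square of the log2 differences over the 6 pairs was 0.65 for *Bhlhe40*, 0.76 for *Bhlhe41* and 1.54 for *Ciart*. Over the 7 pairs of the same ZT it was 0.36, 0.49 and 1.09, so each gene lay closer to its reference course by light time than by feeding time. These values share libraries and are given without a test.

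**Figure D3:**
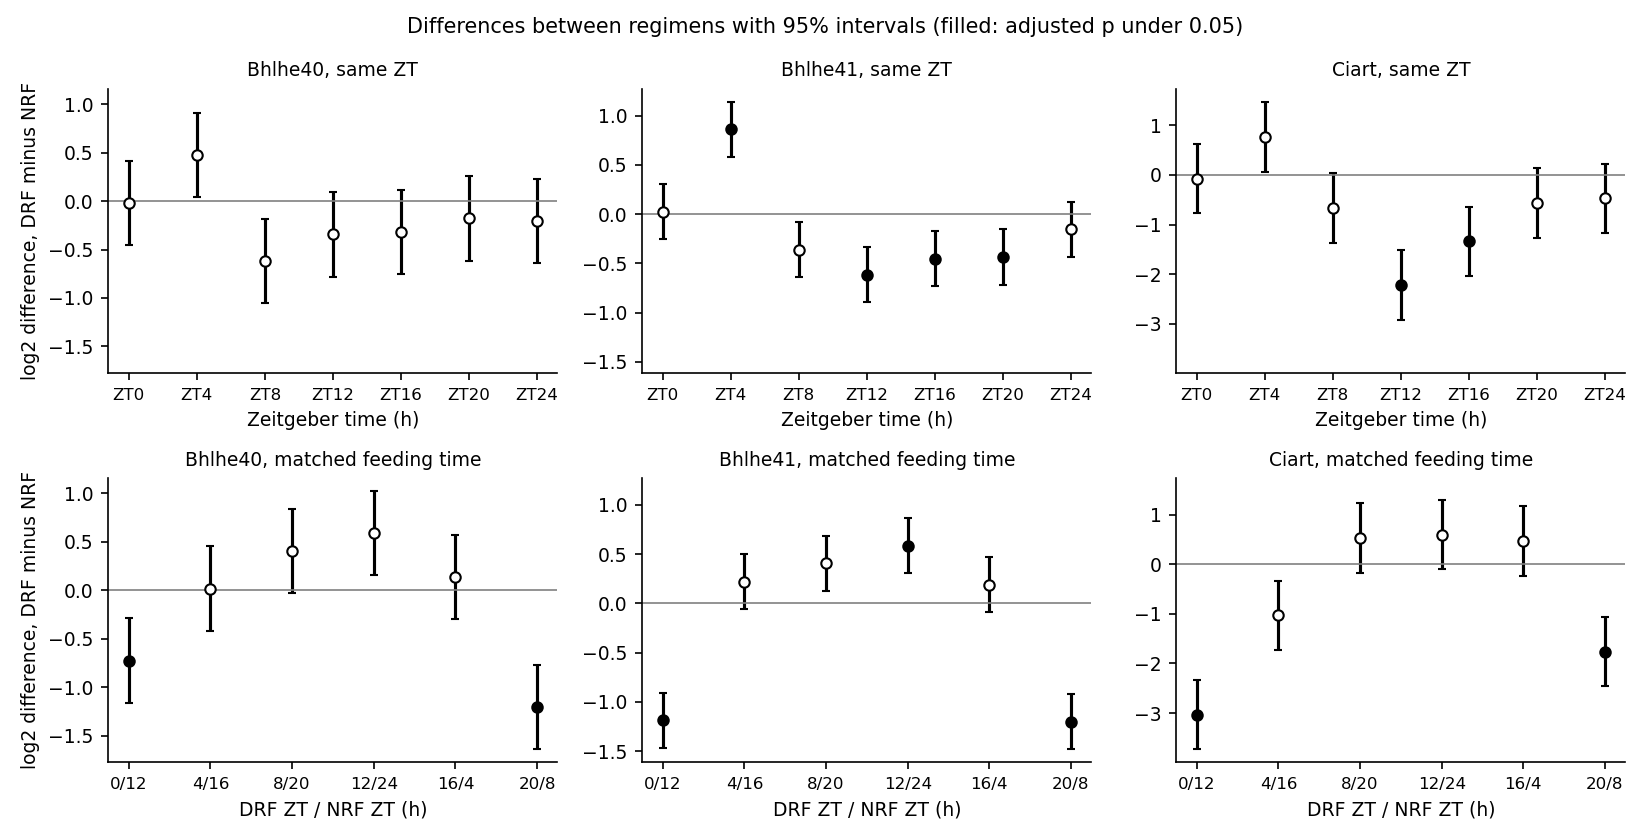
Log2 difference of DRF minus NRF with 95% intervals for each gene, at the same ZT (top) and at matched feeding time (bottom, DRF ZT and NRF ZT in hours); filled points have a limma adjusted p under 0.05. All 3 genes are filled and below 0 at DRF ZT0 with NRF ZT12 and at DRF ZT20 with NRF ZT8.

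The 16 other core clock genes were all rhythmic under NRF and 14 under DRF, and all 16 differed in rhythm by limma, against 37.2%, 32.3% and 27.5% of all genes. Among the 14 rhythmic in both, the median shift was -1.84 h, 13 peaked earlier and 13 had a smaller amplitude under DRF (median log2 ratio -0.72). Over all 2444 genes rhythmic in both regimens, 1598 peaked earlier and 1390 had a smaller amplitude under DRF, the median shift was -1.78 h and the median log2 amplitude ratio -0.10. Regardless of direction, the median size of the shift was 1.99 h for the 14 core clock genes and 3.81 h for the 2444 genes. The largest absolute shifts in the list were those of *Rora*, an activator of *Arntl* (4.12 h, later), *Nfil3*, a repressor at D-boxes (-3.22 h), and *Cry1*, a core repressor (-2.80 h). The smallest were those of *Cry2* (-0.10 h) and *Per1* (0.27 h), whose rhythms were not called under DRF (adjusted p = 0.0552 and 0.470), and of *Nr1d1*, a repressor of *Arntl* (-0.78 h).

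Set beside the members, *Dbp*, an E-box-driven output gene, peaked at ZT 11.3 under NRF and ZT 9.19 under DRF (-2.14 h) with amplitudes of 2.48 and 1.71. *Per2* peaked at ZT 14.8 and 13.3 (-1.5 h, amplitudes 1.81 and 1.17). The activators peaked at the opposite side of the day, *Arntl* at ZT 0.858 and 23.2 (-1.71 h, amplitudes 1.71 and 1.01) and *Clock* at ZT 0.537 and 23.2 (-1.32 h, amplitudes 0.51 and 0.24). By their point estimates with all libraries, the shifts of *Bhlhe41* and *Ciart* were larger in size than those of these 4 partners. The difference was not tested, and *Rora* of the same list shifted further (4.12 h). Without the libraries labelled DRF ZT4 replicate 1 and NRF ZT8 replicate 1 the shift of *Ciart* was -2.25 h. Without ZT4 that of *Bhlhe41* was -1.66 h. Shifts of the partners in these settings are not given here. For mean level, 2 of the 16 were called, against 26.0% of all genes (*Cry1* lower under DRF, -0.26, adjusted p = 0.00338, and *Nr1d2* higher, 0.29, 0.00562), with a list median of 0.07 against -0.05 over all genes.

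Among 9 tested modifiers of clock proteins, 4 differed in rhythm, against 27.5% of all genes. *Usp2*, a deubiquitinase and clock output gene, had an amplitude of 0.78 under NRF (peak ZT 13.1) and 0.13 under DRF, where no rhythm was called (limma adjusted p of the difference 4.86e-09). *Fbxw11*, a component of a ubiquitin ligase, had amplitudes of 0.09 and 0.04 (limma adjusted p of the difference 0.00798). For mean level 3 of the 9 were called, all lower under DRF, against 24.3% of all genes called as lower.

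Of 10 related bHLH repressors and Id proteins, 2 differed in rhythm, which is near the 27.5% of all genes. *Hey1*, a Notch target, was called rhythmic under NRF alone (amplitudes 0.26 and 0.06, limma adjusted p of the difference 0.0329), and *Hes6* had amplitudes of 0.15 and 0.20 with peaks at ZT 10.6 and 6.39 (0.0312). Only *Heyl* of the 10 had a called mean level (-0.15, adjusted p = 0.00149), against 26.0% of all genes. These relatives of the DEC genes had amplitudes of at most 0.26 in either regimen.

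Of 14 tested hypoxia-responsive genes, a rhythm was called for 8 under NRF and for 5 under DRF, and 7 had a different rhythm. The shares over all genes were 37.2%, 32.3% and 27.5%, so the share under DRF was near that of all genes. *Egln3*, an oxygen-sensing prolyl hydroxylase, peaked at ZT 21.4 under NRF and ZT 13.2 under DRF (-8.22 h, amplitudes 0.72 and 0.33, limma adjusted p 3.13e-08). *P4ha1*, a collagen prolyl hydroxylase, peaked at ZT 19.3 and 14.5 (amplitudes 0.51 and 0.34, 0.00114). *Vegfa*, an angiogenic factor, had an amplitude of 0.32 under NRF with a peak at ZT 22.6 and no called rhythm under DRF (adjusted p of the difference 0.0171). For mean level 2 of the 14 were called, both lower under DRF (24.3% of all genes), and the list median was -0.01.

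Over the 14 group means of log2(TPM + 1), the gene most like *Bhlhe40* was *Alad* (Pearson r = 0.966), followed by *Bhlhe41* (0.924), *Fam117a* (0.922), *Gm17971* (0.921) and *Cpz* (0.907). Most like *Bhlhe41* were *Numbl* (0.933), *Bhlhe40* (0.924), *Dbp* (0.910), *Ipo13* (0.907) and *Cpz* (0.897). Most like *Ciart* were *Slc12a4* (0.970), *Rufy1* (0.908), *Asap1* (0.907), *Capn1* (0.905) and *Abcc1* (0.8996). The DEC genes were therefore each other's second closest of all genes tested, while *Bhlhe41* ranked 23rd and *Bhlhe40* 81st for *Ciart* (r = 0.870 and 0.834). The 14 means come from the same libraries for every gene, and r is given as a description.

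**Figure D4:**
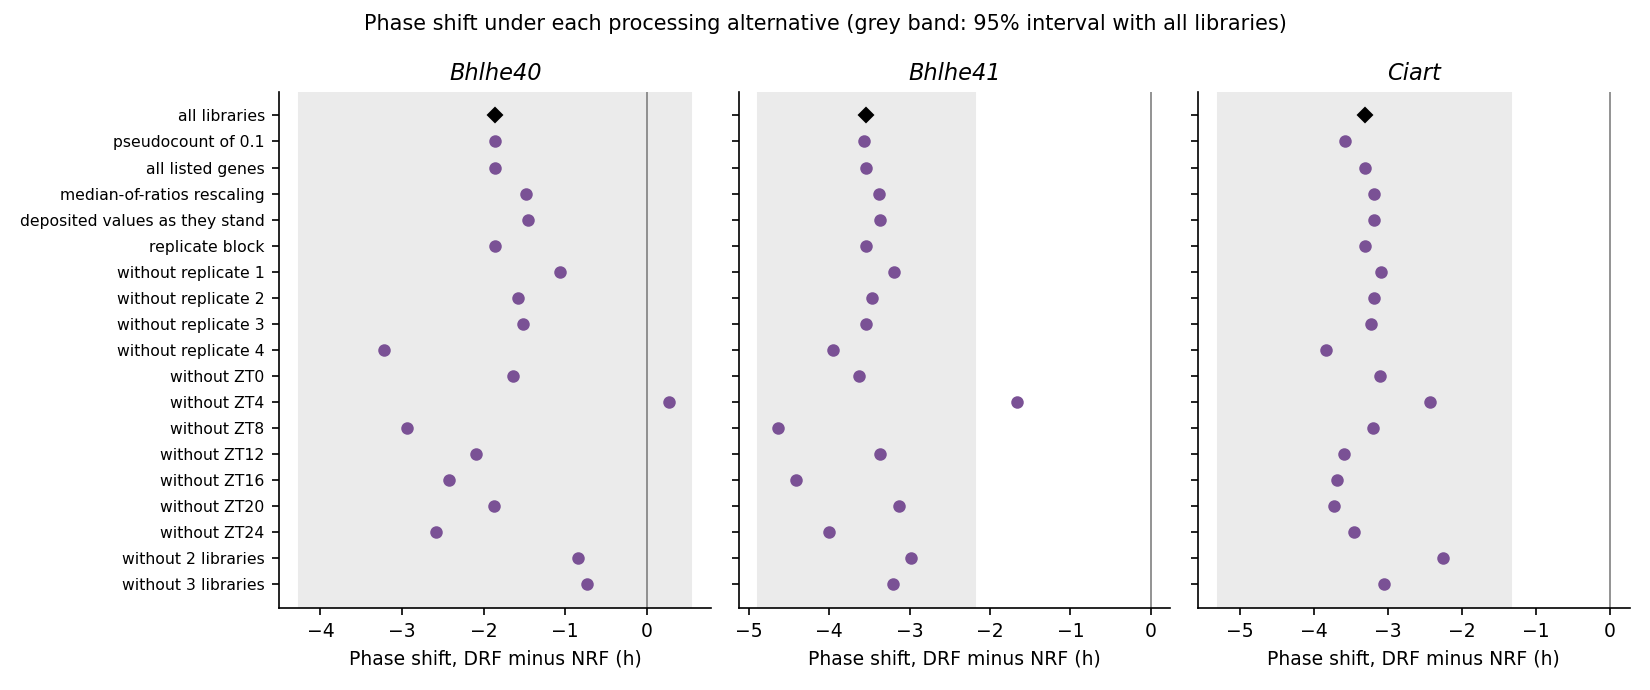
Phase shift (h, DRF minus NRF) of each gene with all libraries (diamond) and under each alternative (points), with the 95% interval in grey. Every point of *Bhlhe41* (-4.64 to -1.66 h) and *Ciart* (-3.84 to -2.25 h) is below 0, while *Bhlhe40* ranges from -3.23 h to 0.27 h (without ZT4).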

How the data were processed

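PolyA RNA-seq libraries of 56 mouse hearts were grouped by the labels alone (2 regimens, 7 ZTs, 4 replicates each). Per the labels, the authors aligned reads to mm10 with HISAT2 2.0.5 and counted with featureCounts 1.5.0-p3. The deposited values are named TPM but are in another unit: each equals a library constant times log2(1 + scaled reads), divided by exon length. Whole reads were recovered from these steps with GENCODE M21 exon lengths, with which 97.5% of 1272499 values under 60000 reads lay within 0.1 of a whole number. For 22003 genes, the members among them, every such value was whole. For 824 others (801 on chromosomes 17 to 19) the length that gives whole reads was searched for, so their values are whole by construction, 23 abundant genes kept the annotated length unchecked, and 14 of 22864 genes were not used. Linear TPM was then recomputed, which the planned tests had assumed. The annotation used and the use of strand were not given in the sources used here.

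The 13885 genes averaging 1 TPM or more were tested on log2(TPM + 1) with limma 3.58.1 (R 4.3.3, trend, Benjamini-Hochberg, threshold 0.05); differences of low genes are understated on this scale. Rhythms used cosine and sine terms of 24 h. Phase errors are delta-method estimates, intervals are 95%, and permutations numbered 100000. Recovery and fits were tested on simulated data. Reads without molecular identifiers cover counting error only, and the labels do not say that replicates are separate animals, so p-values measure the spread between libraries. The deviations of same-numbered libraries of different groups had a mean correlation of 0.0214 (364 pairs, 98 of them over 0.1). For libraries of other numbers it was -0.00718 (1092 pairs, 231 of them over 0.1). The main fits used no replicate block, and pairing of only some libraries was not tested. The libraries that stood apart all carry replicate number 1.

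The members and gene lists were chosen with earlier results of these data known. Named genes were the members, the 3 largest and 3 smallest absolute phase shifts of the core clock list and its partners of the members, up to 3 genes per other list with the widest range among those with a different rhythm, and the 5 genes most like each member; 1 gene under this rule is not reported here. Alternatives were another pseudocount, no filter, rescaling by median ratios, limma-voom on reads, the deposited values, a replicate block, ZT24 for ZT0 and the reverse in the feeding-matched pairs, and leaving out replicates, ZTs or libraries.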

Additional observations from a re-analysis of the deposited data

Results flagged for a closer look

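In 42 groups of 4 libraries (3 genes in 14 groups), 4 held a library whose gap to the nearest other library was large relative to the range of the group, where chance gives about 1 in 20. All 4 were in 2 libraries. The library labelled DRF ZT4 replicate 1 held 12.5 TPM of *Bhlhe41* and 7.60 TPM of *Ciart*, both the highest of their group. The library labelled DRF ZT16 replicate 1 held 6.05 TPM of *Bhlhe41* and 6.12 TPM of *Ciart*, again the highest. Both also stood apart over the other core clock genes. The library labelled NRF ZT8 replicate 1, which stood apart there as well, was not flagged by this rule. The rhythm differed between regimens for *Bhlhe41* (limma adjusted p = 0.000308) and *Ciart* (limma adjusted p = 0.000452).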

How the results depend on the processing

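Of 411 recomputed values of 24 results, 370 were counted as the same. These kept their direction and side of the threshold, moved by less than the error, or were counts of calls that changed little. For example, the number of ZTs called for *Bhlhe41* was 4 with all libraries and 5 without replicate 1, which was counted as the same. Without ZT4, the shift of *Bhlhe40* turned to 0.27 h, that of *Bhlhe41* was -1.66 h, and the mean level of *Bhlhe40* was called (adjusted p = 0.00586). Without ZT8, the log2 amplitude ratio turned to 0.19 for *Bhlhe40* and 0.067 for *Bhlhe41*, and the shift of *Bhlhe41* was -4.64 h (-4.41 h without ZT16). Without ZT12 the amplitude ratio of *Ciart* was -0.79, and without ZT20 the rhythm of *Bhlhe40* under DRF had an adjusted p of 0.0632. The mean level of *Bhlhe41* was not called without ZT0 (0.0665), ZT8 (0.401), ZT12 (0.112), ZT20 (0.0637) or ZT24 (0.0968), after median-of-ratios rescaling (0.0942), or on the deposited values (0.0684).

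Leaving out each replicate number in turn gave, for *Bhlhe40*, an adjusted p of the rhythm under DRF of 0.0225 to 0.0725, a shift of -3.23 to -1.06 h, an amplitude ratio of -1.06 to -0.22, an adjusted p of the mean level of 0.0301 to 0.331, 0 to 1 ZT called and 1 feeding-matched pair called. For *Bhlhe41* it gave an adjusted p of the mean level of 0.00159 to 0.207 and 1 to 5 ZTs called, and for *Ciart* 1 to 3 ZTs called. Without the filter on low values, 1 feeding-matched pair was called for *Bhlhe40* and 2 ZTs for *Bhlhe41* (also 2 on the deposited values). The libraries that stood apart were left out as alternatives chosen after seeing the data. Without 2 of them (DRF ZT4 replicate 1 and NRF ZT8 replicate 1), *Bhlhe40* had 1 ZT called and a called mean level (adjusted p = 0.00787), and *Ciart* shifted by -2.25 h. Without 3 (also DRF ZT16 replicate 1), *Bhlhe40* again had 1 ZT and its mean level called (0.0104).

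The replicate block changed no call of the members, with adjusted p values of the difference in rhythm of 0.219 for *Bhlhe40*, 0.000456 for *Bhlhe41* and 0.000562 for *Ciart*. Over all genes, the count with a different rhythm was 3824 and fell to 1842 without replicate 3 and 2387 without ZT12. The count rhythmic under NRF was 5168 (2810 without replicate 2, 3314 without ZT12), that under DRF 4490 (2302 without replicate 1, 2578 without ZT16), and that with another mean level 3604 (1178 without replicate 3, 1413 without ZT8, 1788 without ZT16, 1901 on the deposited values, 1828 after rescaling). Sampling every 4 h and the 20 to 902 reads of *Ciart* limit how finely its peak is placed. The causes of these changes were not tested.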
